A study of Mus musculus with 6 samples.

Results

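The nuclear-encoded subunits of the mitochondrial respiratory chain and ATP synthase were examined in hippocampal mRNA of 3-month-old mice. Members were all genes whose names begin as the subunit families do, namely Nduf followed by a, b, c, s or v and a number, Sdha to Sdhd, Uqcr, Cox4 to Cox8, and Atp5. This gave 82 of the 17385 genes in the table, with 36 in complex I, 4 in complex II, 8 in complex III, 16 in complex IV and 18 in complex V. The study compared 3 5xFAD samples with 3 WT samples, in 1 RNA-seq library each. The 5xFAD mice carried human APP with the Swedish, Florida and London mutations and a further mutant human transgene, on a C57BL/6J background. WT mice were littermates without the transgenes. Both transgenes were driven by the mouse Thy1 promoter, which is active mainly in neurons, so the model overexpresses mutant proteins in neurons rather than carrying the mutations at the mouse loci. The study's methods name no other treatment that separated the groups. They describe perfusion of the animals in general, and the labels do not give it per sample.

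The respiratory chain moves electrons from NADH and succinate to oxygen and stores the energy as a proton gradient across the inner mitochondrial membrane. Complex I takes electrons from NADH, complex II takes them from succinate in the tricarboxylic acid cycle, and both pass them through ubiquinone to complex III, then through cytochrome c to complex IV, where oxygen is reduced to water. Complex V, the ATP synthase, lets protons back through a rotor in the membrane and makes ATP in its catalytic head. Neurons depend heavily on this pathway for firing and synaptic transmission. All of complex II and most subunits of the others are encoded in the nucleus, while a few central subunits of complexes I, III, IV and V are encoded in mitochondrial DNA and were not members.

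Total counts per library were between 18997677 and 23873280, with the lowest in 5xFAD replicate 2. That library stood apart from the others. Of the 13937 genes tested, 36.8% had their lowest level of the 6 libraries there and 36.0% had their highest. Thy1, whose promoter drives the transgenes, measured 851, 887 and 813 CPM (read counts per 1000000 counted reads, with libraries scaled by edgeR's TMM method) in the WT libraries and 2776, 3316 and 2379 CPM in the 5xFAD libraries, and each of the 6 libraries matched its label in this respect. Markers of hippocampal excitatory neurons were abundant in every library, and none of the markers in the 10 cell type lists was at 0 throughout. Tissue was sequenced in bulk, so fewer cells of a type and less RNA per cell cannot be told apart in any of the values that follow. The labels do not tie each sample to a single mouse, so p-values measure only the spread between these samples, which may be in part technical.

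No subunit gene passed the test between 5xFAD and WT hippocampus. Of the 82 members, 77 had enough counts to be tested, and 0 were called higher or lower at an adjusted p under 0.05 by the edgeR quasi-likelihood test, where 0.761% of all genes tested were called, 0.0933% as lower and 0.667% as higher. The smallest adjusted p of any member in this test was 0.206, for Uqcrc1. At an unadjusted p under 0.05, 13 members were lower and 0 higher in 5xFAD, beside 9.03% lower and 9.87% higher among all genes tested. DESeq2 called 0 of the 77 at an adjusted p under 0.05 (3.64% of all genes) and limma-voom called 0 (0.732% of all genes). In DESeq2, 13 members were lower and 2 higher at an unadjusted p under 0.05, beside 9.62% lower and 10.6% higher among all genes tested.

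The members nevertheless lay mostly on the lower side. The log2 fold change of 5xFAD over WT was below 0 for 58 of the 77 members (75.3%) and above 0 for 19, while 50.9% of all genes tested were below 0. The median log2 fold change was -0.17 over the members and -0.01 over all genes tested, and single members ranged from -0.54 to 0.67. The 3 5xFAD libraries all lay below the 3 WT libraries for 26 members, beside 15.1% of all genes tested, and all above for 1 member, beside 13.2%. For the remaining 50 members the groups overlapped. The 5 members not tested were Ndufa5, Cox7a1, Cox7b2, Cox8b and Atp5l-ps1, each at no more than 0.649 CPM in any library.

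The size of the difference depended on the 5xFAD library. The median difference of the members from the WT mean, on the log2 CPM scale, was -0.15 in 5xFAD replicate 1, -0.28 in replicate 2 and -0.05 in replicate 3, against values between -0.01 and 0.005 in the WT libraries. In replicate 2, 49 members (63.6%) had their lowest level of the 6 libraries and 19 (24.7%) their highest. The summed level of the 82 members was 7307, 7370 and 7295 CPM in WT and 6750, 6412 and 7033 CPM in 5xFAD. As a share of all counts this was 0.742%, 0.742% and 0.741% in WT and 0.669%, 0.603% and 0.725% in 5xFAD. The 3 WT libraries were close to each other, and each 5xFAD library lay below them, replicate 3 by the least.

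**Figure D1:**
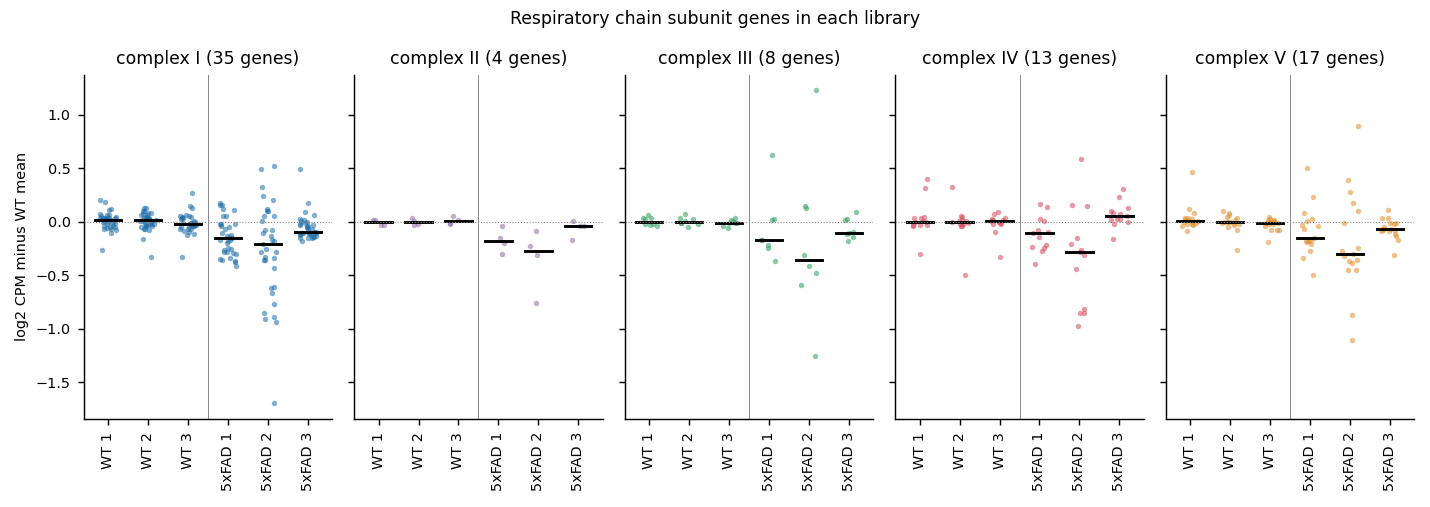
Each point is 1 of the 77 tested members, plotted by complex, with its log2 CPM minus the mean of the 3 WT libraries on the vertical axis and the 6 libraries on the horizontal axis; black bars are medians. The 5xFAD replicate 2 points spread the most and reach the lowest medians, and complex IV in 5xFAD replicate 3 has a median above 0 (0.05).

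Complex I, which oxidises NADH, had the largest number of members. Of its 35 tested genes, 27 had a log2 fold change below 0 and 8 above, with a median of -0.15. For 12 of them all 5xFAD libraries lay below all WT libraries, beside 15.1% of all genes tested. Ndufs8, a core subunit that carries iron-sulfur clusters (GRCm38 chr19:3908863-3912774), measured 52.9, 52.5 and 51.1 CPM in WT and 43.8, 41.6 and 46.9 CPM in 5xFAD. The groups did not overlap, and the log2 fold change was -0.24 ± 0.0831 SE (edgeR quasi-likelihood test adjusted p = 0.229). The accessory subunit gene Ndufb4 measured 51.0, 46.2 and 44.5 CPM in WT and 37.3, 36.9 and 43.0 CPM in 5xFAD, at a log2 ratio of -0.27 ± 0.101 SE (edgeR adjusted p = 0.238). The accessory subunit gene Ndufa7 measured 41.2, 38.5 and 37.7 CPM in WT and 30.02, 20.7 and 35.3 CPM in 5xFAD, at a log2 ratio of -0.45 ± 0.179 SE (edgeR adjusted p = 0.254). Replicate 2 was the lowest of the 6 libraries for these 3 genes.

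Other complex I genes were level between the groups or higher in some 5xFAD libraries. Ndufs1, the largest core subunit, measured 122.7, 129.4 and 125.5 CPM in WT and 122.8, 130.5 and 116.4 CPM in 5xFAD, so the groups overlapped (log2 ratio -0.03 ± 0.0788 SE, edgeR adjusted p = 0.82). The following genes were chosen after their values were seen. Ndufv1, the core subunit that binds NADH and the flavin cofactor, measured between 96.5 and 102.0 CPM in the WT libraries and 76.98, 54.9 and 91.9 CPM in 5xFAD. Ndufa6 and Ndufs5, both accessory subunits, stood on the other side. Ndufa6 measured 42.0, 44.6 and 44.5 CPM in WT and 48.7, 61.4 and 40.3 CPM in 5xFAD, and Ndufs5 measured 52.1, 49.8 and 50.2 CPM in WT and 56.6, 72.8 and 47.05 CPM in 5xFAD. For both genes, 5xFAD replicate 3 was the lowest library and replicate 2 the highest. The only member with all 5xFAD libraries above all WT libraries was Ndufb2, an accessory subunit, at 15.3, 17.0 and 15.35 CPM in WT and 17.3, 18.25 and 17.9 CPM in 5xFAD (log2 ratio 0.17 ± 0.102 SE, edgeR adjusted p = 0.354). Ndufb2 overlaps the protein-coding gene Gm42420 on the same strand by its bounds, and how any shared reads were counted was not tested. Ndufa5, an accessory subunit, had only 2 to 15 counts per library and gives no usable comparison. Whether reads of this gene were lost to near-identical copies elsewhere in the genome was not tested.

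Complex II, succinate dehydrogenase, joins the tricarboxylic acid cycle to the chain. Its 4 genes all had log2 fold changes below 0, from -0.34 to -0.06, with a median of -0.17. Sdhb, the iron-sulfur subunit (GRCm38 chr4:140961203-140979193), measured 82.2, 81.3 and 79.6 CPM in WT and 70.6, 69.0 and 72.1 CPM in 5xFAD. This gene had a narrow spread within each group and no overlap, with 81.0 ± 1.29 CPM in WT and 70.6 ± 1.55 CPM in 5xFAD (mean ± SD, n = 3 each), and its log2 fold change was -0.20 ± 0.0724 SE (edgeR adjusted p = 0.236). Sdha, the flavoprotein that oxidises succinate, measured 347.5, 364.6 and 352.4 CPM in WT and 344.5, 334.2 and 345.9 CPM in 5xFAD. Its groups were separated by a small gap, at a log2 ratio of -0.06 ± 0.069 SE (edgeR adjusted p = 0.627). Sdhd, a membrane anchor, also had no overlap, and Sdhc, the other anchor, did.

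Complex III, the cytochrome bc complex, held both the smallest adjusted p and the highest fold change of all members. Uqcrc1, a core protein on the matrix side (GRCm38 chr9:108936633-108949623), measured 179.5, 183.6 and 184.5 CPM in WT and 154.3, 147.4 and 161.0 CPM in 5xFAD. All 5xFAD libraries lay below WT, replicate 3 included, and the log2 fold change was -0.24 ± 0.074 SE (edgeR adjusted p = 0.206). Uqcrfs1, the Rieske iron-sulfur protein, measured 62.3, 62.5 and 65.0 CPM in WT and 54.3, 45.4 and 58.4 CPM in 5xFAD, at a log2 ratio of -0.26 ± 0.106 SE (edgeR adjusted p = 0.254). Uqcrb, a small subunit near the ubiquinone site (GRCm38 chr13:66900617-66905378), went the other way in part of the samples. It measured 71.3, 75.4 and 74.0 CPM in WT and 113.1, 172.6 and 66.5 CPM in 5xFAD. Replicates 1 and 2 were far above WT and replicate 3 was below it, and the log2 fold change was 0.67 ± 0.292 SE (edgeR adjusted p = 0.264). The bounds of Uqcrb overlap those of a gene on the opposite strand, Gm10767. The strand setting of the counting was not given in the sources used here, and shared exons were not examined. Whether reads of the pair could be told apart is therefore not known. The same holds for Ndufs1 with Eef1b2, Cox4i1 with Emc8, Cox6c with Vps13b and Atp5d with Cbarp. Protein-coding genes on the same strand also overlap members, such as Gm20388 at Cox4i1 and Gm42420 at Ndufb2. In all, 36 members overlapped another annotated gene by their bounds. Over the 8 genes of complex III, 5 were below 0 and 3 above, and the summed level was 699.7, 706.5 and 694.7 CPM in WT and 685.7, 717.8 and 658.1 CPM in 5xFAD, where the groups overlapped.

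Complex IV, cytochrome c oxidase, had 13 tested genes, 10 with a log2 fold change below 0 and 3 above, and a median of -0.11. Only 1 of them, Cox6b1, had all 5xFAD libraries below all WT libraries, beside 15.1% of all genes tested. Cox6b1, which faces the intermembrane space, measured 121.8, 121.1 and 123.4 CPM in WT and 100.9, 98.1 and 120.3 CPM in 5xFAD, at a log2 ratio of -0.20 ± 0.0963 SE (edgeR adjusted p = 0.288). Cox4i1, the main nuclear-encoded subunit and a site of regulation by ATP, measured 259.6, 258.1 and 259.0 CPM in WT and 234.2, 190.8 and 259.1 CPM in 5xFAD. Replicate 3 lay within the WT range, and the log2 fold change was -0.18 ± 0.114 SE (edgeR adjusted p = 0.36). Cox6c, a small accessory subunit, measured 105.2, 99.5 and 103.1 CPM in WT and 112.7, 113.3 and 104.7 CPM in 5xFAD, at a log2 ratio of 0.10 ± 0.0763 SE (edgeR adjusted p = 0.421).

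The summed level of complex IV was 1162, 1158 and 1174 CPM in WT and 1060, 877 and 1209 CPM in 5xFAD, so replicate 2 was the lowest of the 6 libraries and replicate 3 the highest. The same order held for a pair of abundant small subunits, chosen after their values were seen. Cox6a1 measured 198.1, 195.2 and 201.5 CPM in WT and 167.3, 109.5 and 212.3 CPM in 5xFAD, and Cox8a measured 195.5, 201.7 and 206.2 CPM in WT and 171.2, 102.2 and 219.7 CPM in 5xFAD. Both genes were on opposite sides of WT in replicates 2 and 3.

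Complex V, the ATP synthase, took the largest part of the members' counts, with summed levels of 2931, 2946 and 2935 CPM in WT and 2673, 2535 and 2771 CPM in 5xFAD. All 5xFAD sums lay below all WT sums. Of its 17 tested genes, 12 had a log2 fold change below 0 and 5 above, with a median of -0.17. For 7 of them all 5xFAD libraries lay below all WT libraries, beside 15.1% of all genes tested. Atp5b, the catalytic beta subunit of the head (GRCm38 chr10:128083273-128090391), was the most abundant member at 944, 956 and 943 CPM in WT and 833, 757 and 889 CPM in 5xFAD. Its log2 fold change was -0.20 ± 0.0808 SE (edgeR adjusted p = 0.258). Atp5d, the delta subunit of the central stalk (GRCm38 chr10:80138632-80145818), measured 157.7, 157.4 and 156.4 CPM in WT and 110.9, 86.0 and 139.5 CPM in 5xFAD. The WT values were nearly equal and all 5xFAD values were below them, at a log2 ratio of -0.49 ± 0.16 SE (edgeR adjusted p = 0.222).

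A pair of genes in this group by name are not ATP synthase subunits. Atp5sl, known as an assembly factor of complex I, measured 43.6, 49.5 and 45.7 CPM in WT and 38.3, 36.0 and 42.1 CPM in 5xFAD, at a log2 ratio of -0.25 ± 0.0975 SE (edgeR adjusted p = 0.244). Atp5s, a coupling factor chosen after its values were seen, measured 17.7, 16.7 and 15.9 CPM in WT and 23.8, 31.2 and 16.2 CPM in 5xFAD. Like Uqcrb it was high in replicates 1 and 2, and in replicate 3 it lay within the WT range, while Uqcrb lay below its own. Atp5l-ps1, Cox7a2l and Ndufa4 were also set aside as not structural subunits of their complex, the last being now counted with complex IV. Without all of these, the median over the 73 remaining tested members was -0.17. Ndufa4l2, the paired gene of Ndufa4, was kept among them.

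The c subunit, which forms the membrane rotor of complex V, is encoded by 3 genes, Atp5g1, Atp5g2 and Atp5g3. Their precursors, of 136, 146 and 141 residues, differ in the leader that directs import, and their last 75 residues, the mature protein, translate to the same protein. The coding sequences of the mature part are shown because the 3 messages encode 1 product and yet differ in base composition and in level between the libraries. Capitals mark the 57 of 225 bases that are not the same in all 3 genes, and 52 of these are at the third position of a codon.
Atp5g1: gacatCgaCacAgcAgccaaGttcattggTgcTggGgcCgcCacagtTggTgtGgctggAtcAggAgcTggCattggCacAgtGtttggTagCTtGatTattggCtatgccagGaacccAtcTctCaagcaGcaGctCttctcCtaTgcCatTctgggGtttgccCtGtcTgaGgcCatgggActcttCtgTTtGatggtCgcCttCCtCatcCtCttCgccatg
Atp5g2: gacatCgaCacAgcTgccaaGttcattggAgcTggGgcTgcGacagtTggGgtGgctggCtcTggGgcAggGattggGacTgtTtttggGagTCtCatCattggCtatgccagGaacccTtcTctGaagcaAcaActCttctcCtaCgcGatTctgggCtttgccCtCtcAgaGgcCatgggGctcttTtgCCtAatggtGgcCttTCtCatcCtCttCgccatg
Atp5g3: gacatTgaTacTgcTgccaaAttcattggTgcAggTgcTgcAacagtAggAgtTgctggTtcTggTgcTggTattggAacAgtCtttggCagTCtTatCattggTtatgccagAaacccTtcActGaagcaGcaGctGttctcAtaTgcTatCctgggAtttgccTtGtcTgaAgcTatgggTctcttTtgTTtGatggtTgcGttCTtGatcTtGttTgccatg
The sequences come from GENCODE M21 transcripts of genes at GRCm38 chr11:96068852-96075670, chr15:102662864-102672352 and chr2:73908447-73911326, all on the minus strand. GC content was 54.7%, 55.6% and 45.8% over these stretches, and 62.7%, 62.7% and 38.7% at the third position of codons. Base identity was 84.9% between Atp5g1 and Atp5g2, 80.0% between Atp5g1 and Atp5g3 and 78.7% between Atp5g2 and Atp5g3.

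Atp5g2 was the c subunit gene with the lowest 5xFAD values relative to WT. It measured 40.6, 42.7 and 40.8 CPM in WT and 32.6, 19.1 and 33.2 CPM in 5xFAD, with no overlap. Its log2 ratio of -0.54 ± 0.195 SE was the lowest of any member (edgeR adjusted p = 0.236). Atp5g3 measured 99.97, 94.3 and 97.9 CPM in WT and 86.0, 75.3 and 92.3 CPM in 5xFAD, also with no overlap. Atp5g1 measured 73.5, 73.5 and 68.0 CPM in WT and 63.1, 52.2 and 73.6 CPM in 5xFAD, and its groups overlapped. The differences between the 3 genes were not tested.

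**Figure D2:**
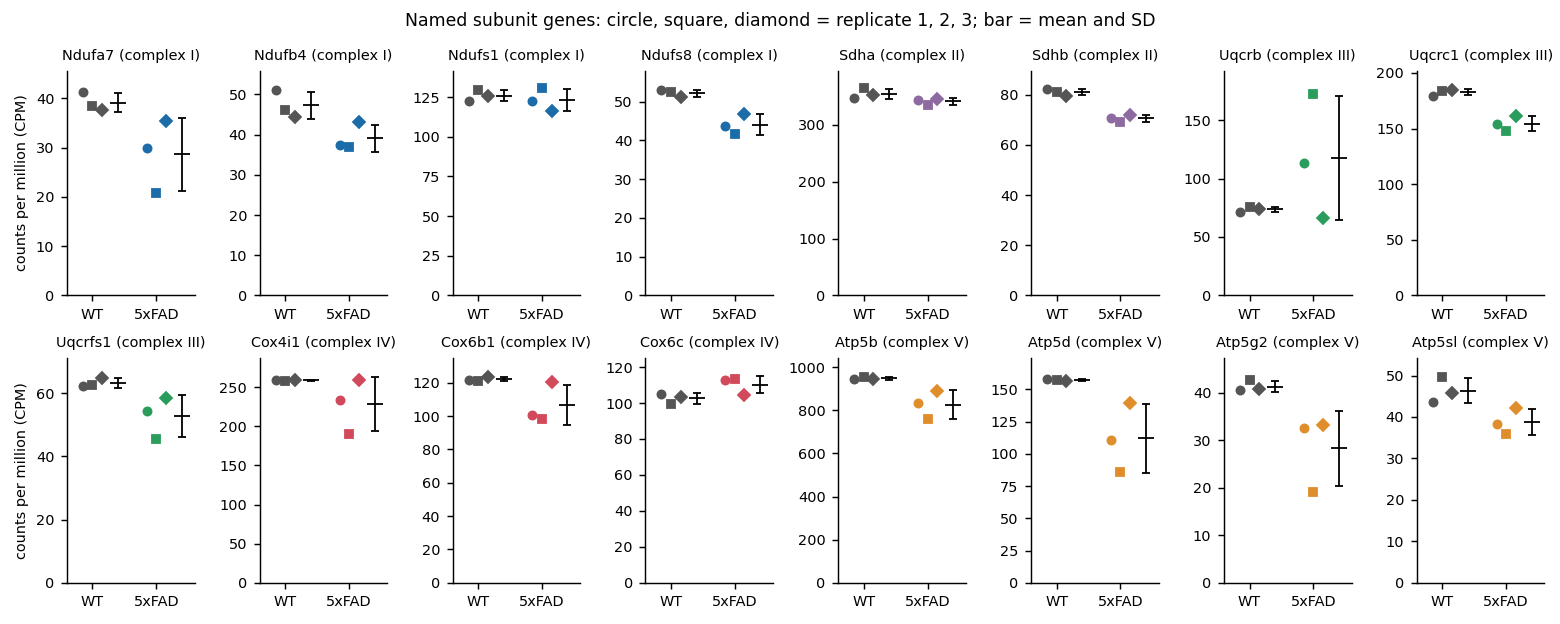
Level in CPM (vertical axis, from 0) of 16 named genes in the WT and 5xFAD groups, with circles, squares and diamonds for replicates 1, 2 and 3 and a bar for the mean and SD of 3 libraries. Sdhb and Uqcrc1 show a narrow 5xFAD group below WT, while Uqcrb spreads from 66.5 to 172.6 CPM in 5xFAD.

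Several subunits have paired genes used in different tissues, and their levels can be compared between genes only per length. Levels here are mean WT CPM per kb of transcript. Cox4i1, the general form, stood at 338.4 ± 1.00 (SD, n = 3) and Cox4i2, known from lung and from low oxygen, at 1.47 ± 0.349. Cox6a1 stood at 347.2 ± 5.54 and the heart and muscle form Cox6a2 at 6.11 ± 1.85. Cox6b1 stood at 197.6 ± 1.92 and the testis form Cox6b2 at 2.42 ± 0.559. Cox8a stood at 365.7 ± 9.80 and the muscle form Cox8b at 0.338 ± 0.323. Cox7a2 stood at 67.2 ± 2.90, Cox7a2l, which takes part in joining complexes III and IV, at 18.4 ± 1.01, and the muscle form Cox7a1 at 1.04 ± 0.593. Ndufa4 stood at 138.4 ± 5.89 and Ndufa4l2, known from low oxygen, at 3.71 ± 0.725. In each of these pairs the general form exceeded the other by far more than the spread between libraries. For the c subunit genes the transcript length matters, because the principal transcripts of Atp5g1 ran from 596 to 4715 nt. With the transcripts used for the other genes above, the levels were 15.2 CPM per kb for Atp5g1, 56.6 for Atp5g2 and 136.4 for Atp5g3. With the shortest principal transcript of each they were 120.3 for Atp5g1, 93.8 for Atp5g2 and 136.4 for Atp5g3, so the order of Atp5g1 and Atp5g2 turned with the transcript chosen.

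**Figure D3:**
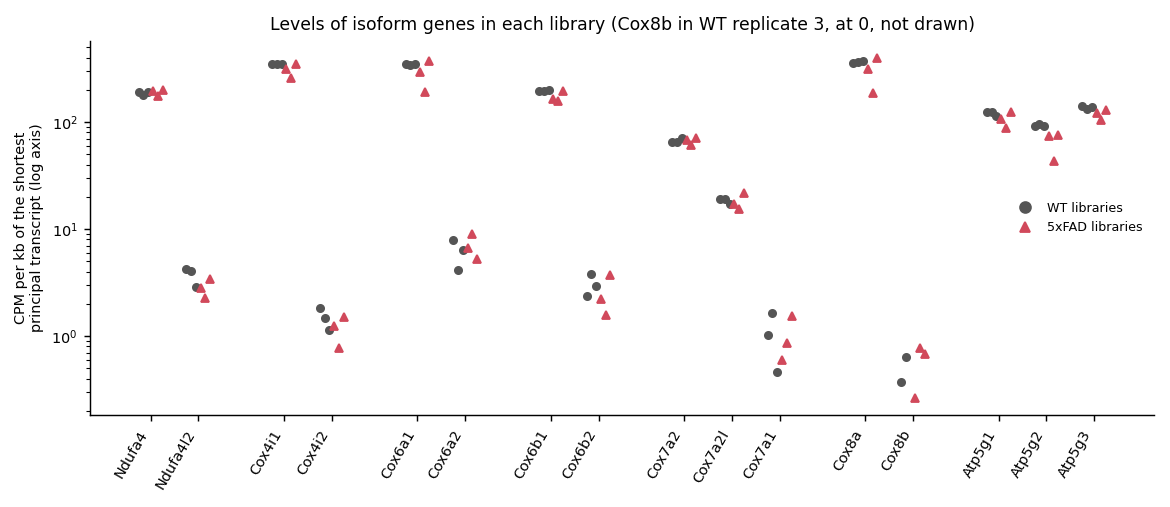
CPM per kb of the shortest principal transcript on a log axis, for each of 3 WT (circles) and 3 5xFAD (triangles) libraries, by isoform set. General forms such as Cox4i1, Cox6a1 and Cox8a lie far above their muscle, testis or low-oxygen counterparts in all 6 libraries.

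Promoters of subunit genes are known for sites of NRF1, GABP and YY1, and windows from 250 bases before to 50 bases after the start were searched on both strands (RefSeq, GRCm38.p6). Of the 77 tested members, 63 matched a window, as did 10883 of all genes tested. The NRF1 core CGCATGCG was in 9 members (14.3%) and 3.9% of all genes, the ETS motif CCGGAAGT in 5 members (7.9%) and 8.2% of all genes, and the YY1 motif AAGATGGC in 10 members (15.9%) and 4.8% of all genes. Median log2 fold changes were -0.19 for the 9 members with the NRF1 core and -0.15 for the 54 without, -0.14 for the 5 with the ETS motif and -0.16 for the 58 without, and -0.11 for the 10 with the YY1 motif and -0.17 for the 53 without. A match is a description of the letters and no evidence of binding. The windows of 3 members with an NRF1 match are shown to let a reader see where the match falls. These 3 members had the lowest log2 fold changes of the 9, at -0.54 for Atp5g2, -0.44 for Uqcr11 and -0.28 for Cox6a1. The highest of the 9 was Atp5j at 0.21. The windows run from 250 bases before to 30 bases after the start, with matches in capitals. That of Uqcr11, a small complex III subunit, also holds an ETS match.
Atp5g2: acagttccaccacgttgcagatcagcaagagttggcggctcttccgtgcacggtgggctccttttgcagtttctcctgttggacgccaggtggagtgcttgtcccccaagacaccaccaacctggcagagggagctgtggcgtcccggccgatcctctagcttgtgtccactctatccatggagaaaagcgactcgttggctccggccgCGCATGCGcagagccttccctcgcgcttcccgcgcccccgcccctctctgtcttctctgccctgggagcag
Cox6a1: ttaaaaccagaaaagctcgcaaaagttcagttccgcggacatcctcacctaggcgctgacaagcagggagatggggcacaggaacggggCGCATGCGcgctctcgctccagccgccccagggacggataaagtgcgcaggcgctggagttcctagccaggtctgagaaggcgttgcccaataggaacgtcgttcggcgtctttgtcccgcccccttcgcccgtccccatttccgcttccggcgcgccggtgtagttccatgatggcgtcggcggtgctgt
Uqcr11: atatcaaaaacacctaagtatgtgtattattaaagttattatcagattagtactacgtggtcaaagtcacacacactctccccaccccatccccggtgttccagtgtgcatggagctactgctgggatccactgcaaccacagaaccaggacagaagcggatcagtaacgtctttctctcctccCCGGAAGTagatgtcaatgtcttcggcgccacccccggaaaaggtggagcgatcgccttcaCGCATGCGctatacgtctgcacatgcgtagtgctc
They lie on the minus strand at chr15:102671018-102671297, chr5:115348929-115349208 and chr10:80406792-80407071. In the printed order the NRF1 matches begin at bases 210, 90 and 246. Uqcr11, chosen after its values were seen, measured 42.65, 39.4 and 40.7 CPM in WT and 31.6, 17.0 and 41.5 CPM in 5xFAD, with 5xFAD replicate 3 inside the WT range.

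Members differed between libraries along with the GC content of their transcripts. Across the 77 members, Spearman's rho between transcript GC and the log2 difference from the WT mean was -0.57 in 5xFAD replicate 1, -0.55 in replicate 2 and -0.195 in replicate 3, and from -0.09 to 0.11 in the WT libraries. Across 13707 genes with a GC value it was -0.53, -0.66 and -0.08 in the 3 5xFAD libraries. These are descriptions across genes, which share libraries and are not replicates. The 10 members under 45% GC, Uqcrb and Atp5s among them, had a median log2 fold change of 0.08, against 0.21 for all genes in that range. The 20 members from 45% to 50% had -0.08 against 0.08, the 24 from 50% to 55% had -0.18 against -0.08, and the 23 at 55% or more had -0.28 against -0.25. In the lower 3 ranges the members' medians lay below those of all genes, and in the highest range they were close. Subunit transcripts were short, with a median of 838 nt against 3070 nt over all genes tested.

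With a term for GC and length in each library, 0 members were called, beside 1.11% of all genes. The median log2 fold change of the members was then -0.12 and that of all genes -0.03, and 60 of the 77 were below 0. By complex the medians were -0.13, -0.18, -0.12, -0.08 and -0.11 for complexes I to V. The term moved single genes in both directions, and 14 of the 77 crossed 0, 6 from below and 8 from above. Atp5d went from -0.49 to -0.19, Uqcrc1 from -0.24 to -0.02, Ndufs8 from -0.24 to -0.02 and Uqcrb from 0.67 to 0.37, while Ndufb2 went from 0.17 to -0.02, Ndufs1 from -0.03 to -0.22 and Uqcrfs1 from -0.26 to -0.36. The part of GC in these differences was not tested beyond this term.

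**Figure D4:**
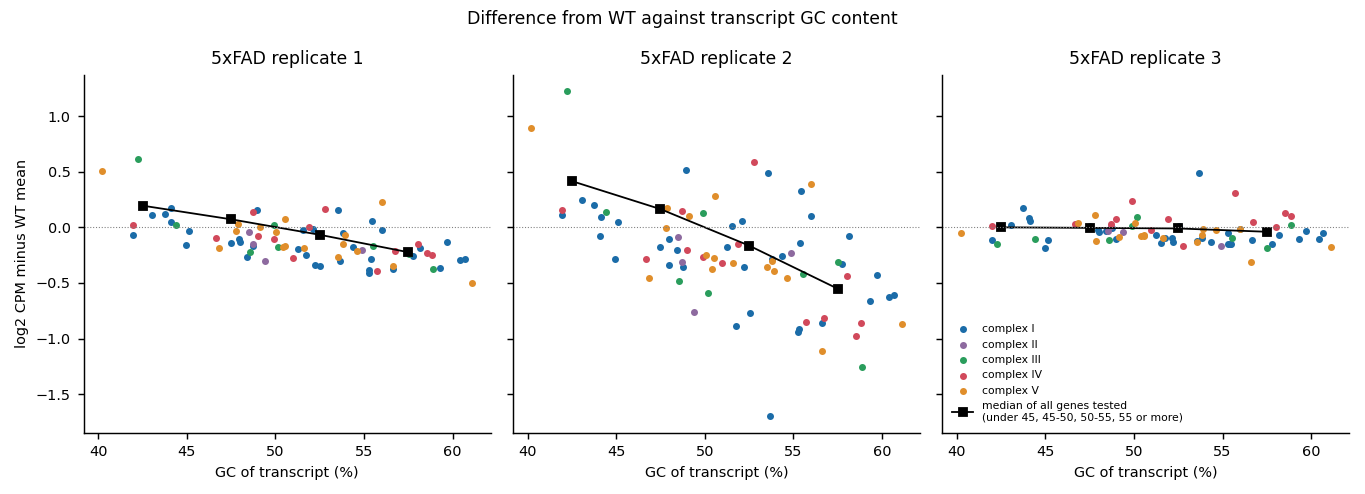
Log2 CPM minus the WT mean (vertical axis) against transcript GC in percent (horizontal axis) for 77 members in each 5xFAD library, coloured by complex; black squares are medians of all genes tested in 4 GC ranges. The slope is downward in replicates 1 and 2 (rho -0.57 and -0.55) and weak in replicate 3 (-0.195).

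**Figure D5:**
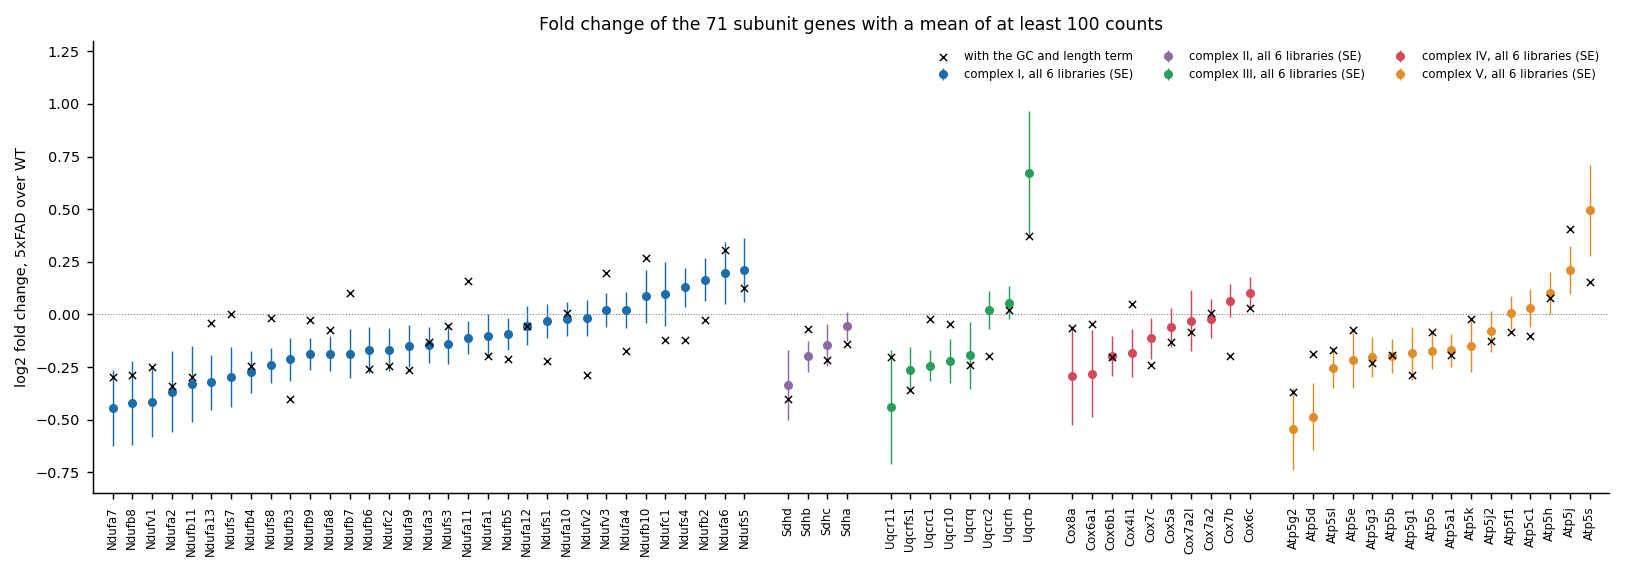
Log2 fold change of 5xFAD over WT with its SE (points and bars, all 6 libraries) for the 71 tested members with a mean of at least 100 counts, ordered within each complex, the other 6 not drawn; crosses are the values with the GC and length term. Most points lie below 0 (53 of 71), and Uqcrb and Atp5s lie highest.

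The number of members called turned on 5xFAD replicate 3. Without it, 18 members were called lower and 3 higher of 77, where 10.9% of all genes were called lower and 12% higher, in a fit of 2 5xFAD and 3 WT libraries. The members called lower included Ndufs8, Ndufv1, Ndufb4 and Ndufa7 of complex I, Sdhd of complex II, Uqcrc1 and Uqcrfs1 of complex III, Cox6a1 and Cox6b1 of complex IV, and Atp5b, Atp5d and Atp5g2 of complex V. The other 6 called lower were Ndufa13, Ndufb8, Ndufb11, Ndufs7, Uqcr11 and Atp5sl. Those called higher were Uqcrb, Atp5j and Atp5s. Uqcrb had an adjusted p of 0.0141 there, and from 0.0141 to 0.523 over all alternatives. Atp5d had 0.0155 there, and from 0.0155 to 0.523 over all alternatives (edgeR and the other tools). The median over the members was -0.22 without replicate 3 and -0.06 without replicate 2. With 5xFAD replicate 3 alone against the WT libraries, 0 members were called, beside 0.853% of all genes, and the median was -0.03. In that comparison the medians of complexes I, II, III and V were -0.07, -0.02, -0.08 and -0.05, and that of complex IV was 0.07.

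Genes around the chain were read from lists of related function, and 0 genes of any of these lists passed the edgeR test. Electron carriers and subunits outside the name rule had a median log2 fold change of -0.03 over 16 genes, and 9 were below 0. Among them Cyc1, the cytochrome subunit of complex III, measured 77.9, 77.3 and 78.8 CPM in WT and 55.5, 34.3 and 72.0 CPM in 5xFAD, and Cycs, cytochrome c, measured 148.1, 174.4 and 152.3 CPM in WT and 210.0, 257.4 and 164.4 CPM in 5xFAD. Assembly factors of the complexes had a median of 0.004 over 40 genes, with 20 below 0. The tricarboxylic acid cycle had -0.01 over 18 genes, with 10 below 0, and regulators of mitochondrial biogenesis had 0.01 over 16 genes, with 7 below 0. Mitochondrial ribosomal proteins had -0.07 over 72 genes, with 45 below 0, and outer membrane and import genes -0.06 over 20 genes, with 12 below 0. Glycolysis genes had a median of -0.175 over 17 genes, with 15 below 0, close to that of the members. Their transcripts had a median length of 2432 nt and a median GC of 53.5%. Cytosolic ribosomal proteins had 0.01 over 88 genes, with 41 below 0. Their median length was 836 nt and their median GC 51.7%, against 51.6% for the members. In the other lists the median GC was 48.9% to 51.5% and the median length 1316 to 3572 nt. The part of GC and length in these medians was not tested. At an unadjusted p under 0.05 the counts, lower then higher, were 1 and 1 for carriers, 6 and 0 for assembly factors, 3 and 0 for the cycle, 1 and 0 for regulators, 4 and 1 for glycolysis, 4 and 0 for mitochondrial ribosomal proteins, 0 and 0 for import, and 0 and 12 for cytosolic ribosomal proteins. Among all genes tested, 9.03% were lower and 9.87% higher at that threshold. The differences between lists were not tested.

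Summed marker levels of several cell types also differed between the groups. Of all genes tested, 0.667% were called higher and 0.0933% lower in 5xFAD. The summed level of 6 microglia markers was 173.8 to 184.5 CPM in WT and 270.2 to 320.0 CPM in 5xFAD, with 2 of 5 tested called higher. That of 5 astrocyte markers was 2584 to 2660 CPM in WT and 3321 to 3393 CPM in 5xFAD, with 2 of 5 called higher. Gfap carried most of the higher astrocyte sum, at 402.4, 377.0 and 427.3 CPM in WT and 1001, 985.3 and 1060 CPM in 5xFAD. The log2 ratios of the others were 0.64 for Aqp4, 0.137 for Slc1a3, 0.0723 for Gja1 and -0.17 for Aldoc. The 4 choroid plexus markers summed to 110.2 to 125.0 CPM in WT and 193.5 to 455.9 CPM in 5xFAD, with 0 of 4 called. The 5 erythroid markers summed to 54.9 to 84.9 CPM in WT and 1.06 to 2.35 CPM in 5xFAD, with 4 of 5 called lower. Whether perfusion or blood content differed between the groups was not tested. The 4 oligodendrocyte markers summed to 3857 to 4672 CPM in WT and 3470 to 3479 CPM in 5xFAD, with 0 of 4 called, and the 6 excitatory neuron markers to 10430 to 10730 CPM in WT and 10790 to 13030 CPM in 5xFAD, with 0 of 6 called. Snap25 and Rbfox3 in the excitatory list are not limited to excitatory neurons. Snap25 carried most of the higher sum, at 2389, 2479 and 2299 CPM in WT and 3438, 5115 and 2216 CPM in 5xFAD. The log2 ratios of the others were -0.12 for Slc17a7, 0.003 for Camk2a, 0.398 for Neurod6, 0.658 for Prox1 and 0.152 for Rbfox3. The 5 interneuron markers summed to 864.6 to 1192 CPM in WT and 725.5 to 898.3 CPM in 5xFAD, with log2 ratios below 0 for each, from -0.784 (Slc32a1) to -0.201 (Gad1), and 0 of 5 called. Oligodendrocyte precursor markers summed to 103.0 to 106.5 CPM in WT and 76.01 to 103.5 CPM in 5xFAD, endothelial markers to 182.1 to 208.5 and 163.2 to 201.2 CPM, and ependymal markers to 12.2 to 30.4 and 14.6 to 18.8 CPM, with 0 called in each list. No marker of these lists was at 0 in all libraries. The part of these cell types in the levels of the subunit genes was not tested.

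Counts of 5 genes encoded in mitochondrial DNA were in the table, and they were looked at after the values of the members were seen. mt-Nd4 and mt-Nd5 encode membrane subunits of complex I. mt-Nd4 measured 12290, 13030 and 11690 CPM in WT and 23120, 37950 and 11590 CPM in 5xFAD, and mt-Nd5 measured 3481, 3884 and 3196 CPM in WT and 5669, 8531 and 3499 CPM in 5xFAD. Both were high in 5xFAD replicates 1 and 2 and near the WT level in replicate 3, and Uqcrb and Atp5s were also high in replicates 1 and 2 only. mt-Nd3, another complex I subunit, measured 44.0, 28.4 and 37.8 CPM in WT and 22.3, 19.6 and 20.3 CPM in 5xFAD, at a log2 ratio of -0.83 ± 0.162 SE (edgeR adjusted p = 0.088). mt-Co3, a catalytic-core subunit of complex IV, measured 578.1, 596.0 and 670.0 CPM in WT and 617.6, 528.1 and 492.6 CPM in 5xFAD, so its groups overlapped. mt-Nd4l, also of complex I, measured 38.0, 84.6 and 104.5 CPM in WT and 155.0, 131.3 and 115.0 CPM in 5xFAD, with no overlap and an edgeR adjusted p of 0.249. These genes are low in GC, at 33.05% for mt-Nd3, 35.6% for mt-Nd4, 37.1% for mt-Nd5, 38.9% for mt-Co3 and 41.1% for mt-Nd4l. With the GC and length term the log2 ratio went from 0.97 to 0.50 for mt-Nd4, from 0.74 to 0.32 for mt-Nd5, from 0.82 to 0.585 for mt-Nd4l, from -0.83 to -1.14 for mt-Nd3 and from -0.17 to -0.47 for mt-Co3. Mitochondrial genes have near-identical nuclear copies, and how their shared reads were counted was not tested, so these levels are uncertain.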

How the data were processed

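Hippocampal RNA in 3 5xFAD and 3 WT samples from mice aged 3 months was sequenced by the authors after ribosomal RNA depletion, as paired-end reads. The submitters' processing notes name cutadapt 1.9.3 for trimming, HISAT2 2.0.4 with the mm10 genome for alignment, HTSeq 0.9.1 for counting and edgeR 3.16.5 for their own comparison. Raw read counts per gene were taken as deposited, with no normalization by the authors. Annotation release and strand setting were not given in the sources used here. Another 6 per-sample columns held normalized values and were not used, and sex, which the study's methods describe in more than 1 way, was not analysed. Groups came from sample titles. Some items are not reported here by name.

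The analysis ran in R 4.3.3 and edgeR 4.0.16 (filterByExpr, minimum count 10, TMM, quasi-likelihood test, two-sided, all 6 libraries, no block) and Benjamini-Hochberg adjustment over 13937 genes, threshold 0.05. CPM used TMM library sizes, and the SE was the log2 fold change over the square root of F. Alternatives used no filter, DESeq2 size factors, library totals, DESeq2 1.42.0, limma-voom 3.58.1, a replicate block, a GC and length term, and omitted libraries. The term was a natural spline with 4 df each for GC and log2 length of the principal transcript (GENCODE M21, 98.3% of genes tested), fitted per library to log2 CPM minus the WT mean (prior count 2) and used as an offset. Members and lists were chosen with earlier results of these data known. Named genes were members past the threshold (0), the 3 members with the smallest unadjusted p in complexes I, III, IV and V and 1 in complex II with a mean of at least 1 CPM, a core gene of each complex, and isoform sets. Total counts set the precision of low genes. Reads carry no molecular identifiers, so counts are not independent molecules.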

Additional observations from a re-analysis of the deposited data

How the results depend on the processing

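The counts of members called stayed at 0 in each direction under no filter, both other scalings, DESeq2, limma-voom, the GC and length term, 5xFAD replicate 3 alone, and the omission of any library but 5xFAD replicate 3. Leaving out 1 library at a time gave 0 to 3 members called higher and 0 to 18 called lower. The upper ends were without 5xFAD replicate 3. Of all genes tested, 12, 17 and 14 were called without WT replicates 1, 2 and 3, and 20 without 5xFAD replicate 1. Without 5xFAD replicate 2 it was 227, and without 5xFAD replicate 3 it was 3229. Where so few genes were called, a count of 0 members says little. The medians ran from -0.218 (without 5xFAD replicate 3) to -0.0642 (without 5xFAD replicate 2). With 5xFAD replicate 3 alone the median was -0.0339, and it assumes that this library varies like the WT libraries. Members with the opposite direction there included Uqcrb (-0.129), Cox4i1 (0.0174), Atp5s (-0.038), Ndufa6 (-0.102), Ndufs5 (-0.0918), Cox6a1 (0.115), Cox8a (0.144) and Uqcr11 (0.0362). Further members also turned, such as Uqcrq (from -0.194 to 0.111) and Ndufb10 (from 0.0859 to -0.138). With 5xFAD replicate 3 alone, 49 of 79 members were below 0, beside 58 of 77 with all 6 libraries. With the GC and length term 14 of the 77 tested members crossed 0, Cox4i1 (0.048) and Ndufb2 (-0.0247) among them, and Ndufs1 ranged from -0.0688 to 0.00763 as libraries were left out. The causes were not tested.

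The labels do not say whether same-numbered samples were paired. Correlations of same-numbered WT and 5xFAD libraries' deviations from their group means were -0.00774, -0.0283 and -0.0362, and other pairs lay between -0.0414 and 0.0498. Deviations from the mean of a few libraries depend on each other, so these correlations cannot exclude pairing. With a replicate block, 0 members and 20 of all genes were called and the members' median was -0.169. With the block and the GC and length term together, Cox4i1 was 0.0481, Ndufb2 was -0.0295 and 0 members were called.

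Chosen after seeing the data, the median over the 41 tested members without an overlapping gene was -0.194, and 0 of them were called. Depth limits the lowest members, such as Atp5l, where a few counts decide a value.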
